A study of Mus musculus with 1 sample.

Results

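The genes described here are the p53 family of transcription factors and its direct regulators: Trp53, Trp63, Trp73, Mdm2, Mdm4, Cdkn2a, Usp7, Ppm1d, Hipk2 and Ep300. They were chosen by name, and the members were all probe sets of the array with one of these symbols as their only gene symbol. A total of 32 probe sets of the 45101 on the array met this rule, for 9 of the 10 genes. No probe set carried Trp53 as its only symbol in the annotation table used here, and its level is not analysed here. The material was total RNA of ovarian surface epithelial cells, the simple layer of cells that covers the ovary, from wild-type mice aged 3 months. The series design names 3 genotypes of mice, of which 1 wild-type sample is analysed here. There was 1 array, so no value has a replicate error and no comparison between groups was made. The sources used here do not say whether animals were pooled.

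The p53 protein is a transcription factor that is stabilised by DNA damage and other stress and induces genes of cell cycle arrest, repair and apoptosis. Mdm2 is a ubiquitin ligase that marks p53 for degradation and is itself a p53 target, which closes a negative feedback loop, and Mdm4 is its partner and a repressor of p53 activity. Arf, a product of Cdkn2a, inhibits Mdm2, Usp7 removes ubiquitin from Mdm2 and p53, and Ppm1d, Hipk2 and Ep300 dephosphorylate, phosphorylate and acetylate proteins of the pathway. In the ovary, p53 is best known as the tumour suppressor most often mutated in high-grade serous carcinoma.

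Of the 9 measured genes, 6 were above background and 3 were not. Mdm2, Mdm4, Usp7, Ppm1d, Hipk2 and Ep300 had at least 1 probe set above it, whereas Trp63, Trp73 and Cdkn2a had none. Background here means a limit of 46.5 in intensity, or 5.54 on the log2 scale. It is the 95th percentile of the intensities of 126 background probe sets. These are for keratin-associated proteins and for receptors of smell, pheromones and bitter taste, genes with no known role in ovary. Over all 18193 genes with a probe set of their own, 62.8% had a probe set above this limit, against 66.7% of the 9 genes, so the count of members was near the background share. Genes with more probe sets have more chances to pass the limit. Averaged over genes with the same numbers of probe sets as the 9 members, the share above the limit was 76.8%. Of the 32 probe sets 19 (59.4%) were above the limit, against 55.1% of all 34945 probe sets with 1 gene symbol. The median intensity was 76.5 over the 32 probe sets and 64 over all 34945. Identifiers that end in _a_at, _s_at or _x_at are called marked here: their probes match several transcripts of 1 gene, match transcripts of several genes, or may cross-hybridise. A level at or under the limit does not show that a transcript is absent, since probe sets differ in how well they bind their target.

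Transcripts known as markers of the cells named in the label were above background. All 6 epithelial markers (Krt8, Krt18, Krt19, Upk3b, Msln and Wt1) were above the limit, with brightest probe sets between 2047 and 20836. Markers of other cells that the preparation could hold were divided: all 3 fibroblast markers and all 3 macrophage markers passed, and 1 of 2 measured granulosa cell markers did. Over genes with the same numbers of probe sets, an average of 57.3% passed for the epithelial list and 75.5% for the fibroblast list. The averages were 59.1% for the macrophage list and 47.3% for the granulosa cell list. Passing was not particular to genes of the ovary, since 6 of 11 measured genes restricted to other organs passed too, with brightest probe sets between 47 and 100. The macrophage marker Adgre1 at 47 and the granulosa cell marker Amh at 58 lay within that range. So did these member probe sets: Mdm4 at 57, Usp7 at 98, 92 and 61, and Hipk2 at 50. The brightest probe set of each of the 6 members above background was brighter than 100. Of the related genes described below, Chek1 at 91 and Tbx2 at 49 lay in it by their brightest probe sets. Of 6 measured Y-linked genes 1 passed, Sry at 77. None of 3 endothelial, 2 measured lymphocyte or 4 oocyte markers passed. The lymphocyte marker Cd3e, at 46, lay just under the limit of 46.5, and Adgre1, at 47, lay just above it. The brightest probe sets of the fibroblast markers lay between 916 and 15048, and those of the macrophage markers between 47 and 527. How much of the levels given here came from these other cells was not tested. In such a bulk sample, fewer cells that carry a transcript and less of it per cell cannot be told apart.

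**Figure D1:**
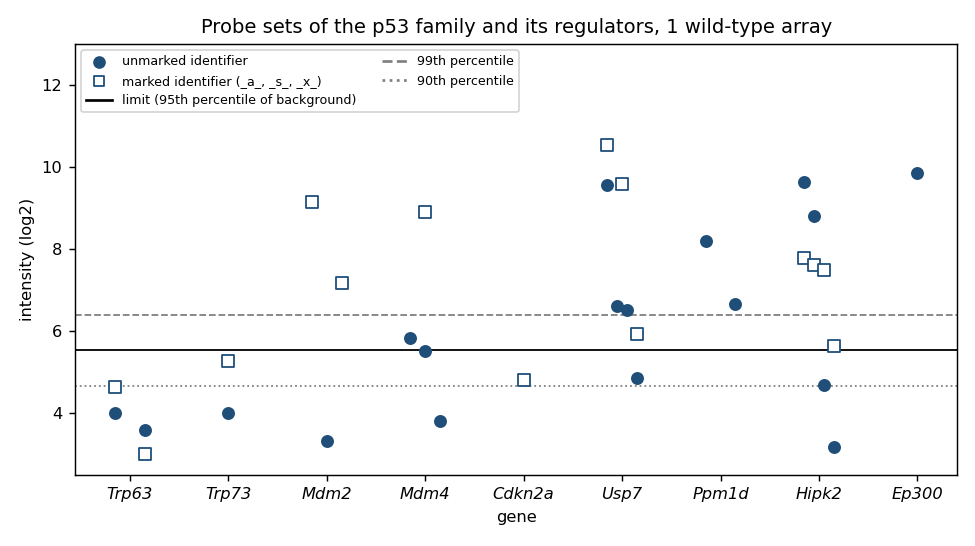
Intensity on a log2 axis of each of the 32 probe sets of the 9 measured genes on 1 wild-type array, with unmarked identifiers as filled circles, marked ones as open squares, and the limit and its alternatives as lines. Every probe set of Trp63, Trp73 and Cdkn2a lies under the limit of 5.54, and the other 6 genes have at least 1 point above it.

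Trp63 encodes p63, a p53 relative that is known as a master regulator of stratified epithelia and as the guardian of oocytes against DNA damage. Its 4 probe sets had intensities of 25, 16, 12 and 8. All of them lay under the limit of 46.5, and the brightest differed from it by -0.90 on the log2 scale. Of the 126 background probe sets, 14 were as bright as the brightest Trp63 probe set or brighter, and 125 were as bright as the dimmest or brighter. The SD over the 4 probe sets was 0.69 in log2, the smallest among the 7 members with several probe sets. All 4 lay within background, which had a median intensity of 13, so this SD does not show that they agree on a level. Of the 1093 genes with 4 probe sets 88.0% had at least 1 above the limit. Trp63 lay under the limit in all 9 alternative settings, but most of them could not have raised it above the limit. Those that could were the 90th percentile, olfactory and vomeronasal receptors alone, and Y-linked genes as background. The log2 differences there were -0.03, -0.23 and -0.72. The oocyte markers Zp3, Gdf9, Bmp15 and Ddx4 were also under the limit, with brightest probe sets of 20, 42, 18 and 7.

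Trp73 encodes p73, a p53 relative with roles in neural development, multiciliated cells and apoptosis. Its 2 probe sets had intensities of 39 and 16, both under the limit. The brighter one differed from the limit by -0.25 on the log2 scale, and 8 of the 126 background probe sets (6.35%) were as bright or brighter. Of the 4695 genes with 2 probe sets 71.8% had at least 1 above the limit. This level is close to the limit: Trp73 lay 0.61 above it with the limit at the 90th percentile and 0.41 above it with olfactory and vomeronasal receptors alone as background. Trp73 is known to be transcribed from an upstream start, which gives the full-length protein, and from an internal start, which gives a form without the activation domain. The annotation does not say which form either probe set detects. The 250 bases before each of the starts that RefSeq lists (GRCm38.p6, minus strand, 5′ to 3′) are shown because they differ in composition. Capitals mark GC boxes, which are GGGCGG on either strand.
Trp73 upstream start, chr4:154139876-154140125: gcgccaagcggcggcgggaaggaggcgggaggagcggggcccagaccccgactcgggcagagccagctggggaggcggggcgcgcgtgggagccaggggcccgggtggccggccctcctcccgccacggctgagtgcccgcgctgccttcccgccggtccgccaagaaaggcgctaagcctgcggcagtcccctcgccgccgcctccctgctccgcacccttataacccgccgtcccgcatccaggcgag
Trp73 internal start, chr4:154097174-154097423: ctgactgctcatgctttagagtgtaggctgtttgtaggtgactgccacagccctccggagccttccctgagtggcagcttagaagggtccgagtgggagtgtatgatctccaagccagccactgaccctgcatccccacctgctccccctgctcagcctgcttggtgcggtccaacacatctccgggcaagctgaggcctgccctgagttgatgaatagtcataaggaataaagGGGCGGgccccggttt

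The upstream Trp73 window had a GC content of 77.2% with 31 CpG dinucleotides, and the internal window 58.4% with 6. The only GC box of this pair lies close to the internal start.

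Cdkn2a encodes 2 unrelated proteins, the cyclin-dependent kinase inhibitor Ink4a and the Mdm2 inhibitor Arf, from separate first exons and shared later exons. Its 1 probe set had an intensity of 28, a difference of -0.73 from the limit on the log2 scale. Of the 126 background probe sets 11 (8.73%) were as bright or brighter. Among the 9183 genes represented by 1 probe set, 47.3% passed. With the limit at the 90th percentile the level lay 0.14 above it on the log2 scale. The identifier of this probe set marks several transcripts of the same gene. The annotation does not say whether it detects the transcript of Ink4a, of Arf or of both. The 250 bases before each of the starts in RefSeq (GRCm38.p6, minus strand, 5′ to 3′) are shown because the single value could not be assigned to either start. GC boxes are again in capitals. From the known order of the first exons, the upstream start is that of Arf and the downstream start that of Ink4a.
Cdkn2a upstream start, chr4:89294620-89294869: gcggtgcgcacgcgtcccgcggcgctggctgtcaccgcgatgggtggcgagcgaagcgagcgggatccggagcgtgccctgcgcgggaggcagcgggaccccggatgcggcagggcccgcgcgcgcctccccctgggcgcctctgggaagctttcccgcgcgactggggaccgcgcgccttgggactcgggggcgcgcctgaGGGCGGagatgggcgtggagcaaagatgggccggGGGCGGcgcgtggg
Cdkn2a downstream start, chr4:89282193-89282442: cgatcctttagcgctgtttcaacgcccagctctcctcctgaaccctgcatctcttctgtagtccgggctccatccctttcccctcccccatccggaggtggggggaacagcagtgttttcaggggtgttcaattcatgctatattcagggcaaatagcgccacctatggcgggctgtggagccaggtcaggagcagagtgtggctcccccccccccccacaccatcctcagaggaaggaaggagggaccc

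The upstream Cdkn2a window had a GC content of 78.4%, 40 CpG dinucleotides and 2 GC boxes, and the downstream window 60.0%, 7 and none. Neighbouring genes and partners of the locus were above background. Of 8 measured genes all 8 passed the limit, with a median of 9.64 on the log2 scale, whereas 68.8% passed on average over genes with the same numbers of probe sets. Cdkn2b, the adjacent inhibitor gene, had 1160, and Cdkn2c and Cdkn2d, inhibitors of the same kinases, had 552 and 460. Of 13 regulators of the locus 12 passed, beside an average of 72.6% over genes with the same numbers of probe sets, so passing was the common outcome. The Polycomb proteins Bmi1, Ezh2 and Cbx7, known repressors of Cdkn2a, had brightest probe sets of 775, 451 and 142. Tbx3, a repressor of Arf, was the exception, with 5 probe sets between 10 and 25.

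Mdm2 was above background by 2 of its 3 probe sets, which had intensities of 567, 145 and 10. The brightest lay 3.61 above the limit in log2, which is 12.2-fold. The SD over the 3 probe sets was 2.96 in log2, the largest among the members, and the brightest was 56.7 times the dimmest. Both bright probe sets have marked identifiers, here for several transcripts of 1 gene, and the dim one is unmarked. Without marked identifiers the level of Mdm2 differed from the limit by -2.18 on the log2 scale, so the call rests on those 2 probe sets. Of the 2366 genes with 3 probe sets 82.9% had at least 1 above the limit. The 250 bases before the RefSeq start (GRCm38.p6, minus strand, 5′ to 3′) are shown because Mdm2 is both a regulator and a target of p53. Its well-known p53 elements lie in the first intron, outside this window.
Mdm2, chr10:117710759-117711008: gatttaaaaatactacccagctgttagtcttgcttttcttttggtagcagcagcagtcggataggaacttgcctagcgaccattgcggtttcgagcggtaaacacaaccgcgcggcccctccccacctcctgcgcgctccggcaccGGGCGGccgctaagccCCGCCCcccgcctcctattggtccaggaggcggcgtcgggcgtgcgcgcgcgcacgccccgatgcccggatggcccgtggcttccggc

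This window had a GC content of 65.6%, 29 CpG dinucleotides, 2 GC boxes and 1 match to the p53 decamer motif, the repeat unit of a p53 response element.

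Mdm4 was above background by 2 of its 4 probe sets. The intensities were 478, 57, 46 and 14, and the probe set at 46 lay just under the limit of 46.5. The brightest lay 3.36 above the limit in log2, and the SD over the 4 probe sets was 2.12. At least 1 probe set was above the limit in 88.0% of the 1093 genes with 4 probe sets. The probe set at 478 has a marked identifier of the kind whose probes match several transcripts, which can be of different genes. Without marked identifiers Mdm4 was 0.33 above the limit on the log2 scale, close to background.

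Usp7, the deubiquitinase of Mdm2 and p53, was above background by 6 of 7 probe sets. Its intensities ran from 29 to 1478 with a median of 98. The brightest lay 4.99 above the limit in log2, and the SD over the probe sets was 2.19. The probe sets at 1478 and 767 have marked identifiers of kinds that can match or cross-hybridise with other genes. Without marked identifiers Usp7 was 4.06 above the limit on the log2 scale. The values spread widely, with 1478 alone, 767 and 755 together, and 98, 92, 61 and 29 near the limit. Of the 97 genes with 7 probe sets 96.9% had at least 1 above the limit. Probe sets with the same sequence record in the annotation did not share a level. The pair of one record had 1478 and 61, which is 24.2-fold, and the 3 probe sets of another had 767, 755 and 98, with 7.83-fold between the extremes. The Usp7 window of 250 bases before the RefSeq start (GRCm38.p6, minus strand, 5′ to 3′) is shown because it had the highest GC content and CpG count of the member windows, at 85.2% and 55, with 7 GC boxes counting overlaps.
Usp7, chr16:8738343-8738592: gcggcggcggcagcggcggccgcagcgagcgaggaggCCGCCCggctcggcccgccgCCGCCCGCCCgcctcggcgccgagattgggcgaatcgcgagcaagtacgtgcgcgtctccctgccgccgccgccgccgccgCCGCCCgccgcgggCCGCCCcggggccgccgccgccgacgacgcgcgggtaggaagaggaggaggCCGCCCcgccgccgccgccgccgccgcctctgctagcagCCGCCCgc

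**Figure D2:**
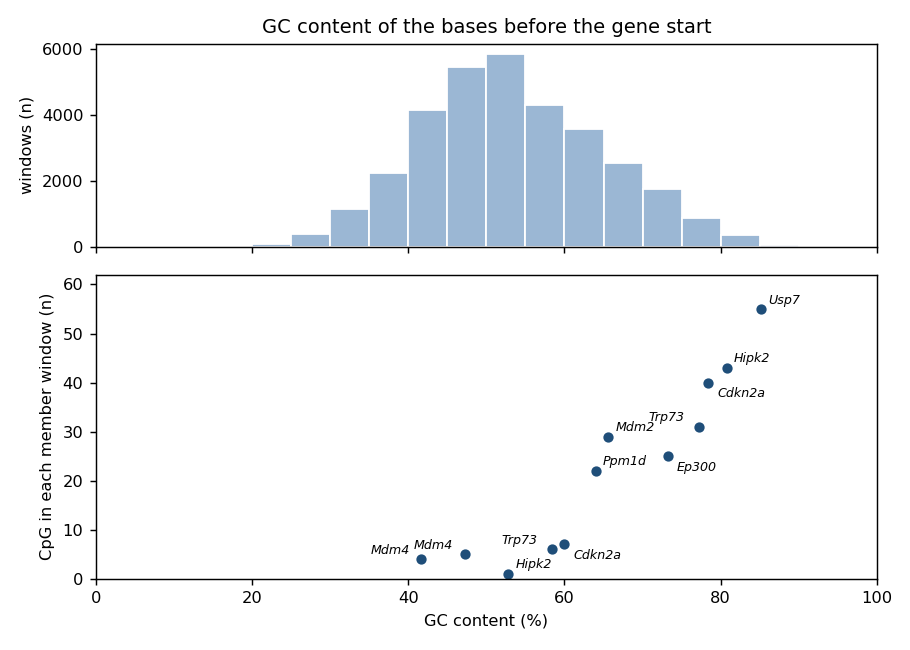
The upper panel counts all 32851 RefSeq windows of 250 bases before a gene start by GC content in percent, and the lower panel plots the number of CpG dinucleotides against GC content for the 12 windows of 8 measured members. Usp7 is highest at 85.2% and 55 CpG, and both Mdm4 windows are lowest in GC content.

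RefSeq windows were matched for 8 of the 9 measured genes, 12 windows in all, and Trp63 had no entry in the table used. The median GC content of the 12 windows was 64.8%, against 52.4% over all 32851 windows, and the median number of CpG dinucleotides was 23.5 against 6. A GC box (GGGCGG, both strands) was present in 7 of the 12 windows and in 32.7% of all windows. A TATAAA (both strands) was in none of the 12 and in 12.4% of all. A CCAAT (both strands) was in 3 of 12 and in 33.9% of all. The p53 decamer motif was in 2 of 12, those of Mdm2 and Ppm1d, and in 7.13% of all. CACGTG, an E-box, was in none of 12 and in 6.02% of all. The table also holds non-coding genes, and windows of 1 gene are not independent. Windows with many CpG dinucleotides occurred on both sides of the limit. Of genes under it, the upstream windows of Cdkn2a and Trp73 had 40 and 31. Of genes above it, Usp7 had 55, the upstream Hipk2 window 43, Mdm2 29, Ep300 25 and Ppm1d 22. The remaining windows lay near or under the median of 6 over all windows: 7 for Cdkn2a, 6 for Trp73, 5 and 4 for Mdm4, and 1 for Hipk2.

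Ppm1d, a phosphatase that is induced by p53 and reverses phosphorylation of p53 and its kinases, had both of its probe sets above background. The intensities were 295 and 101, the brighter lay 2.67 above the limit in log2, and the SD over both was 1.09. At least 1 probe set was above the limit in 71.8% of the 4695 genes with 2 probe sets. Ppm1d stayed above the limit under all 9 alternatives, but only some of them could have lowered it. Those were the 99th percentile, genes of other organs as background, and the mean or lowest probe set. The log2 differences there were 1.80, 2.17, 1.89 and 1.12. Of 5 other phosphatases 4 were above the limit, beside an average of 74.3% over genes with the same numbers of probe sets. Ppm1a had 1679 on the brightest of 8 probe sets, Ppm1b 1792, Ppm1g 722 and Ppp2r5c 1465. Ppp1r10, a regulatory subunit of protein phosphatase, had 43, under the limit of 46.5.

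Hipk2, a nuclear kinase that phosphorylates p53 and promotes apoptosis, was above background by 6 of 8 probe sets. The intensities ran from 9 to 792 with a median of 188.5. The brightest lay 4.09 above the limit in log2 and was 88.0 times the dimmest, and the SD over the probe sets was 2.17. Of the 33 genes with 8 probe sets 97.0% had at least 1 above the limit. A probe set at 50 lay just above the limit and one at 26 below it. The latter shares its sequence record with a probe set at 196, a difference of 7.54-fold. Over all 3788 sets of probe sets with 1 gene and 1 record, the median difference between the brightest and the dimmest was 1.27 on the log2 scale. The 3 such sets among the members had 2.91, 2.97 and 4.60. The relatives Hipk1 and Hipk3 were above the limit as well, with 1077 and 4434 on their brightest probe sets.

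Ep300, a histone acetyltransferase and coactivator that acetylates p53, had 1 probe set, with an intensity of 929. It lay 4.32 above the limit in log2, and no background probe set was as bright. Among the 9183 genes with 1 probe set 47.3% passed. With a single probe set there is no spread to set beside this value. Crebbp, its close relative, passed with 3 of 4 probe sets, up to 1608.

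**Figure D3:**
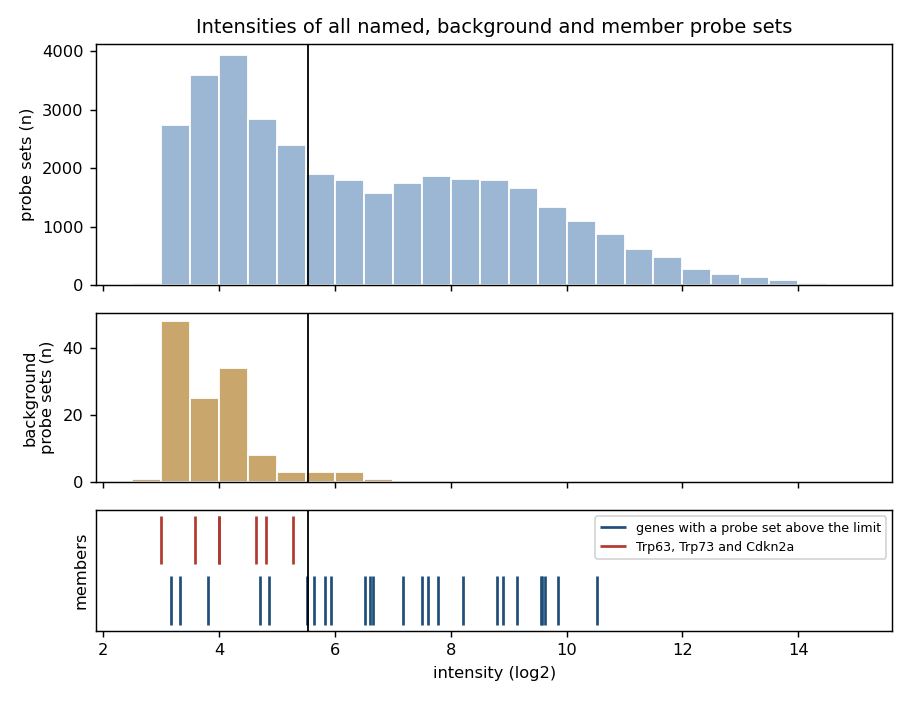
Histograms of intensity (log2) for all 34945 probe sets with 1 gene symbol and for the 126 background probe sets, with the probe sets of the members as ticks and the limit as a vertical line. All ticks of Trp63, Trp73 and Cdkn2a lie to the left of the limit, and those of the other 6 genes spread from 9 to 1478 in intensity, on both sides of the limit.

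Probe sets of 1 gene often disagreed. Of the 7 members with several probe sets 4 (Mdm2, Mdm4, Usp7 and Hipk2) had values on both sides of the limit, as did 4204 of 9010 such genes on the array (46.7%). These 4 lay under the limit when read from their lowest probe set. Their SDs were between 2.12 and 2.96 on the log2 scale. The median SD over all genes with several probe sets and a brightest one above the limit was 1.80. Of the 14 marked probe sets of the members 10 were above the limit, and of the 18 unmarked ones 9 were. Over all named probe sets the shares were 71.4% and 50.3%. Because of this spread the levels of different members are not ranked against each other.

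**Figure D4:**
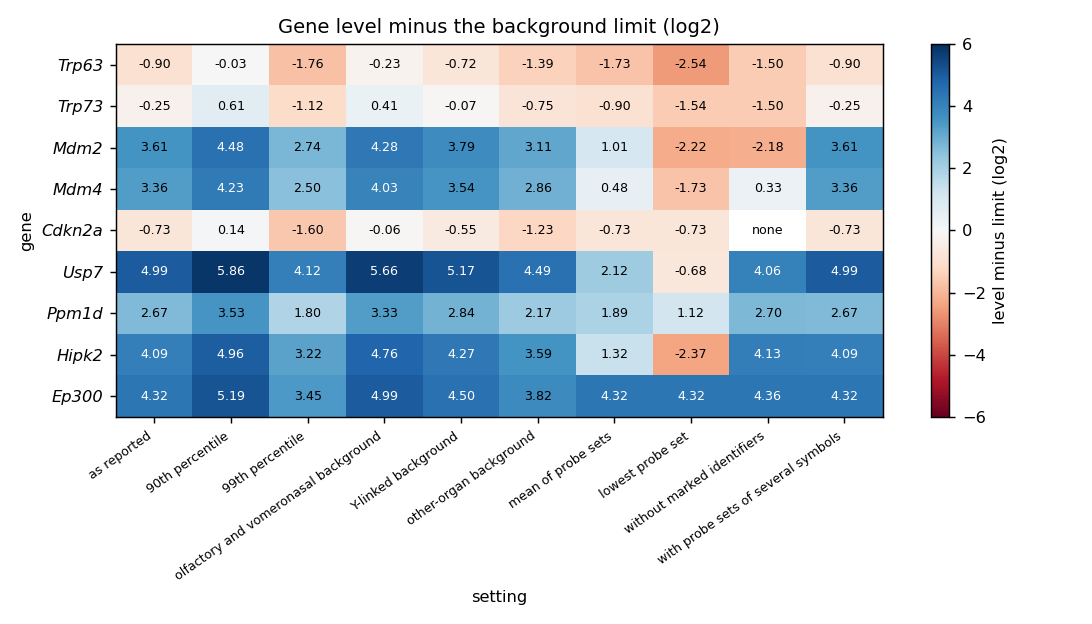
Level of each gene minus the background limit (log2) under the reported setting and 9 alternatives, with blue above the limit, red below it, and none where no probe set was left. Ep300 and Ppm1d are above the limit in every column and Trp63 below it, while Mdm2 changes side without marked identifiers and with the lowest probe set.

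Other genes of the pathway were mostly above background. Of 98 measured genes in 9 lists 94 (95.9%) passed the limit, against 62.8% of all genes and 69.2% when averaged over genes with the same numbers of probe sets. The 4 under the limit were Ppp1r10, Ing4, Tbx3 and Tnfrsf10b. These lists hold well-studied genes, and no test was made on them. All 11 ubiquitin ligases and deubiquitinases passed: Rchy1, a p53 ligase, had 1429, Cop1, another, 1575, and Huwe1, a ligase inhibited by Arf, 1175 on the brightest of 5 probe sets. All 13 measured kinases passed. The damage kinases Atm and Atr had brightest probe sets of 213 and 298, and the checkpoint kinase Chek1 had 91 on 1 of 5 probe sets. All 12 acetyltransferases, deacetylases and methyltransferases passed, among them the acetyltransferases Kat2b at 1994 and Kat5 at 435. Of 11 measured binding proteins 10 passed: Trp53bp1 and Trp53bp2, which bind p53, had 1611 and 583, Ppp1r13b, an activating cofactor, had 862, and Ing4, a chromatin reader, had 18. The nucleolar and ribosomal proteins that can bind Mdm2 or Arf all passed, with Npm1 at 8458, Rpl11 at 14436, Ncl at 3426 and Gnl3 at 870.

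Of 21 measured p53 target genes 20 passed the limit, against 62.8% of all genes and 63.0% when averaged over genes with the same numbers of probe sets. The median of their brightest probe sets was 9.55 on the log2 scale and that over all genes was 7.06, given as a description only, because binding strength varies from one probe set to another. The cell cycle inhibitor Cdkn1a had 1980, the apoptosis inducer Bbc3 had 225, and Ccng1, a cyclin induced by p53, had 3518 on their brightest probe sets. Tnfrsf10b, a death receptor, was the exception, with 24 and 20. Mdm2 and Ppm1d, members that are targets too, were not counted in this list.

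**Figure D5:**
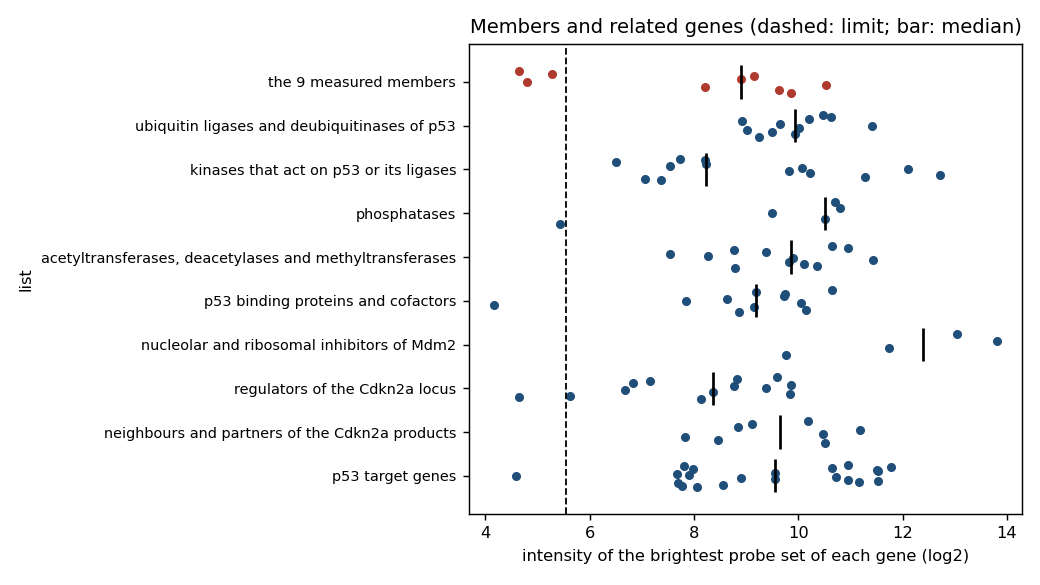
Intensity (log2) of the brightest probe set of each gene for the 9 measured members and for 9 lists of related genes, with a bar at each list's median and the limit as a dashed line. Of the 98 related genes 94 lie to the right of the limit, and 6 of the 9 members do.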

How the data were processed

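Gene expression was measured on 1 Affymetrix array with biotin-labelled cRNA made from 5 ug of total RNA, per the labels' protocols. The deposited table holds intensities of 45101 probe sets. RMA, which corrects background, normalizes and summarises probes, was used with affy, per the submitters' processing notes. Their versions, and whether other arrays entered the normalization, were not given in the sources used here. All deposited intensities are whole numbers from 6 to 32341 on a linear scale, although RMA returns log2 values, and how they were converted is not given. RMA compresses differences at low intensity, and rounding moves an intensity of 28 by up to 0.03 on the log2 scale. An array has no read depth, and 1 array leaves the precision unknown.

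Intensities were put on the log2 scale, and probe sets were named by the platform annotation. Probe sets with several symbols (932) entered no count, and none of them named a member. A gene's level was that of its brightest probe set. The procedure was run on simulated data as a check of the computation only. That check does not show how often a call above or below the limit is right on the array, where probe sets of the same gene often disagreed. The members and lists were chosen with earlier results of these data known. Named genes were all members, the first 3 measured genes of each list, and genes of a list where 5 or fewer lay on one side of the limit. Hipk1, Hipk3 and Tbx2 were named after their values were seen, Tbx2 because it lay in the range of genes restricted to other organs. Alternatives were limits at the 90th or 99th percentile, other background genes, the mean or lowest probe set, removal of marked identifiers, and inclusion of probe sets with several symbols. A planned comparison of protein sequences was not run. Promoter windows are the 250 bases before each start in RefSeq (GRCm38.p6), and overlapping motif matches were counted. Values were computed with pandas 2.3.3 and NumPy 2.4.6 in Python 3.11.15 and drawn with matplotlib 3.10.9.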

Additional observations from a re-analysis of the deposited data

How the results depend on the processing

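The count of 6 members above background was 2 with each gene read from its lowest probe set, namely Ppm1d and Ep300. In that setting 39.7% of all genes passed, against 62.8% in the reported one. With the other 8 alternatives the member count lay between 5 and 8. The 8 came at the 90th percentile, where 73.2% of all genes passed. At the 99th percentile the count was 6, and 55.3% of all genes passed. The 5 came without marked identifiers, where Mdm2 fell under the limit and Cdkn2a had no probe set left. There 59.2% of all genes passed. The count of 19 member probe sets was 10 without marked identifiers, where 18 probe sets were left to count and the limit, taken over the 118 unmarked background probe sets, was 45.3. At the reported limit of 46.5, 9 of these 18 passed, and the other is the Mdm4 probe set at 46. The 94 related genes above background became 54 with the lowest probe set, where the share of all genes was 39.7%. With the lowest probe set, the log2 difference from the limit was -2.22 for Mdm2, -1.73 for Mdm4, -0.68 for Usp7 and -2.37 for Hipk2. Without marked identifiers it was -2.18 for Mdm2. Trp73 passed the limit with the 90th percentile (0.61) and with olfactory and vomeronasal receptors as background (0.41), and Cdkn2a with the 90th percentile (0.14). Over the alternatives the limit lay between 25.5 and 84.7 in intensity. Inclusion of probe sets that list several genes could change no value of a member, since none of them named a member. No alternative can show the spread between animals, since there was 1 array.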
